A study of Mus musculus with 6 samples.

Results

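Srsf2 lies on mouse chromosome 11, where Mettl23 and Mfsd11 overlap it. Described here are 8 of its neighbours: St6galnac2, Gm11735, BC018473, St6galnac1, Mxra7, Jmjd6, Mettl23 and Mfsd11. They are 8 of 26027 genes in the counts, were matched by symbol, and were chosen by their place near Srsf2 and by their measured levels across the 6 libraries. The choice took in genes that were on in 2 wild-type libraries only and neighbours that stayed on. The levels, their split between libraries and the genotype differences of these genes are therefore a description and carry no test.

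The cells were Lin-/cKit+/eYFP+ cells sorted from whole bone marrow, an immature progenitor fraction depleted of cells with mature lineage markers. They came from 3 libraries labelled Srsf2 P95H/+ and 3 labelled Srsf2 +/+ (wild type, WT). All mice were C57BL/6 by label, carried hScl-CreERT and R26eYFP and had received tamoxifen in vivo, so the controls carry the Cre and the reporter and were treated as the mutants were. hScl-CreERT is a tamoxifen-inducible Cre driven by a Scl regulatory element, and R26eYFP is a reporter that turns on in cells where Cre has acted. P95H/+ replicates 1 and 2 were from females and replicate 3 from a male, all of 32 weeks. WT replicate 1 was from a female of 54 weeks, and WT replicates 2 and 3 were from males of 32 weeks. The labels do not say whether each library is a separate mouse. By sex and age, only WT replicates 2 and 3, or P95H/+ replicates 1 and 2, could share one. If either pair did, the p-values below would measure technical spread in part.

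Srsf2 encodes an SR protein, a splicing factor that binds exonic RNA and helps to set which splice sites are used. The P95H change is a recurrent mutation of myelodysplastic and chronic myelomonocytic disease. Around it lie broadly expressed genes and glycan enzymes. Jmjd6, Mettl23 and Mfsd11 are of the first kind and start close to the start of another gene on the opposite strand, an arrangement common among housekeeping genes. St6galnac1 and St6galnac2 encode Golgi sialyltransferases that cap O-linked glycans with sialic acid. BC018473 is a noncoding RNA gene and Gm11735 a pseudogene.

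On mm10 the members run along chromosome 11 in this order. St6galnac2 (ENSMUSG00000057286) lies at 116675303 to 116694868 on the minus strand. Gm11735 (ENSMUSG00000078586), an unprocessed pseudogene, lies at 116739062 to 116749833 on the minus strand. BC018473 (ENSMUSG00000056032), annotated as antisense, lies at 116752167 to 116759373 on the plus strand. St6galnac1 (ENSMUSG00000009588) lies at 116765025 to 116775507 on the minus strand. Gm11735, BC018473 and St6galnac1 are adjacent among the genes counted: 2333 bases separate Gm11735 from BC018473 and 5651 separate BC018473 from St6galnac1, and together they span 36.4 kb. To their left 44.2 kb lie free of other members up to St6galnac2, and to their right 27.6 kb up to Mxra7.

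Mxra7 (ENSMUSG00000020814) lies at 116803062 to 116828046 and Jmjd6 (ENSMUSG00000056962) at 116837432 to 116843449, both on the minus strand. Mettl23 (ENSMUSG00000090266) lies at 116843278 to 116854263 and Mfsd11 (ENSMUSG00000020818) at 116852440 to 116875635, both on the plus strand. Srsf2 itself (ENSMUSG00000034120) lies at 116849901 to 116853094 on the minus strand, so that it is overlapped by Mettl23 and, over 655 bases, by Mfsd11. Jmjd6 and Mettl23 overlap by 172 bases at their starts. The library kit keeps strand, but how counting used it is not given in the sources used here, so reads of these overlapping genes may have been shared among them.

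RefSeq windows of 300 bases on GRCm38.p6 (250 before the gene's start, 50 from it on) were found for 4 of the 8 members, Mxra7, Jmjd6, Mettl23 and Mfsd11, and for Srsf2. St6galnac2, Gm11735, BC018473 and St6galnac1 are given by position only. The windows of Jmjd6 and Mettl23 share 165 bases on opposite strands. Those of Srsf2 and Mfsd11 face away from each other with 167 bases between them. The sequences below are those of Srsf2, of the Jmjd6 and Mettl23 pair, and of Mxra7, shown because their levels are set against those of the 3 adjacent genes. They read 5′ to 3′ on the strand of each gene, with capitals for matches to the motifs searched.
Srsf2 (chr11:116853045-116853344, minus strand): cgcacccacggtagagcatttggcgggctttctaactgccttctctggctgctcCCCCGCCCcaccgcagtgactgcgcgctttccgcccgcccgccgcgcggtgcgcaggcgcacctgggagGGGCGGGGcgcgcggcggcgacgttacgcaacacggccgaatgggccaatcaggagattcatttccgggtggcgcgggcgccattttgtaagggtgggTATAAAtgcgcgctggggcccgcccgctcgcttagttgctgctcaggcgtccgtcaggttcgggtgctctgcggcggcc
Jmjd6 (chr11:116843400-116843699, minus strand): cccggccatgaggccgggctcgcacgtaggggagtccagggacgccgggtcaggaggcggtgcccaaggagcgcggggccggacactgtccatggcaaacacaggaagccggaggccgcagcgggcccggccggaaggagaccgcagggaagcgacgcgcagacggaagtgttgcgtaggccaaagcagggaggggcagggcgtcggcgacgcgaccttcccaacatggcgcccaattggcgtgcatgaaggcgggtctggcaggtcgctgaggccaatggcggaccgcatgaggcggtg
Mettl23 (chr11:116843265-116843564, plus strand): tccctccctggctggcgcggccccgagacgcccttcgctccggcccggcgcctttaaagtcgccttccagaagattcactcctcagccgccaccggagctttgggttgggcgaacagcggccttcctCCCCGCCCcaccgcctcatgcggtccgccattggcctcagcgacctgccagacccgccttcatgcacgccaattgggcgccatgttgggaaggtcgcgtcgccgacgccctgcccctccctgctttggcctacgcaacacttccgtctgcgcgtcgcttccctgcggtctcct
Mxra7 (chr11:116827997-116828296, minus strand): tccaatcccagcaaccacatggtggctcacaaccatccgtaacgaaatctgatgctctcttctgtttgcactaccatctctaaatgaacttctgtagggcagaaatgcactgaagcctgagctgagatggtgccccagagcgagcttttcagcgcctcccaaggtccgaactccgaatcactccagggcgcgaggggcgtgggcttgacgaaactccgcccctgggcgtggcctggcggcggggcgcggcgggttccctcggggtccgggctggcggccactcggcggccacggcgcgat

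The ratio of observed to expected CpG was 1.08 in the Srsf2 window, 0.917 in that of Jmjd6, 0.969 in that of Mettl23, 0.849 in that of Mxra7 and 0.752 in the first window of Mfsd11, against a median of 0.384 over all 32851 windows. Mxra7 and Mfsd11 each have a second window in the table, with lower ratios of 0.610 and 0.639. Of all windows, 2.47% exceeded the value of Srsf2, 24.7% that of the first Mfsd11 window and 35.1% that of the second Mxra7 window. Matches were searched on both strands for 8 motifs. The TATA box was read as TATAAA, held by 13.6% of all windows, the Sp1 motif as GGGCGGGG (17.6%) and the NRF1 motif as GCGCATGC (2.71%). The ETS motif was read as CCGGAAGT (3.89%), the YY1 motif as AAGATGGC (2.75%) and the CRE motif as TGACGTCA (1.79%). The GATA motif was read as AGATAA (11.2%) and the E-box as CACGTG (7.15%). The Srsf2 window held a TATA box that begins 29 bases before the start and an Sp1 match on each strand, and the Mettl23 window held 1 Sp1 match on the other strand. The windows of Jmjd6, Mxra7 and Mfsd11 held none of these letters. Such matches describe sequence and are not binding sites.

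Library totals ran from 10747941 counts in P95H/+ replicate 3 to 23010510 in WT replicate 1. All 10 stem and progenitor markers had counts in every library, with Kit between 475.7 and 548 CPM (CPM being the count scaled to the library total). The libraries of replicate 3 differed from the rest by base composition. Where transcripts held 40% GC or less, the median log2 deviation was -1.15 in P95H/+ replicate 3 and -0.82 in WT replicate 3, and where they held more than 55% it was 0.70 and 0.54. Genotype differences are therefore given with and without these libraries.

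The most uneven of the neighbours was BC018473. It had 1, 4 and 3 counts in P95H/+ replicates 1, 2 and 3, against 2826, 2234 and 2 counts in WT replicates 1, 2 and 3. Scaled to depth this is 0.0461, 0.177 and 0.279 CPM in P95H/+, against 123, 106 and 0.119 CPM in WT. The gene was thus high in WT replicates 1 and 2 and near 0 in the other 4 libraries, and WT replicate 3 lay within the range of P95H/+, so the genotypes overlapped. By CPM per kb of exon it ranked 23357, 22523 and 20741 among 25878 genes in P95H/+ replicates 1, 2 and 3, and 2611, 3120 and 22527 in WT replicates 1, 2 and 3. Relative to WT replicate 1, the CPM was 2662-fold lower in P95H/+ replicate 1 (exact 95% interval 477 to 105173), 694-fold lower in P95H/+ replicate 2 (271 to 2550) and 440-fold lower in P95H/+ replicate 3 (150 to 2135). It was 1034-fold lower in WT replicate 3 (286 to 8544). The low libraries hold 1 to 4 counts, so these ratios are imprecise, and the intervals cover counting error only. Counts alone cannot tell a difference between mice in the sequence of this stretch apart from a difference in its expression.

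St6galnac1, the sialyltransferase that makes the sialyl-Tn antigen on mucin-type glycans, showed the same split. It had 0 counts in each P95H/+ library, against 236, 186 and 0 counts in WT replicates 1, 2 and 3, which is 10.3 and 8.81 CPM in the first pair. A count of 0 allows up to 0.138, 0.133 and 0.279 CPM in P95H/+ replicates 1, 2 and 3 and 0.178 CPM in WT replicate 3, taking a floor of 3 counts per library. WT replicate 1 was therefore at least 57.6-fold and WT replicate 2 at least 49.5-fold above WT replicate 3. The P95H/+ mean was at least 34.7-fold lower than the WT mean of 6.36 CPM, but that mean joins 2 libraries with signal and 1 at 0. The P95H/+ libraries of replicates 1 and 2 were as deep as those of WT replicates 1 and 2, and levels down to about these floors would have given counts there.

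Gm11735 was the third gene with this split. It had 0 counts in each P95H/+ library, against 57, 48 and 0 counts in WT replicates 1, 2 and 3, or 2.48 and 2.27 CPM in the pair with signal. Its annotated transcript resembles that of St6galnac1 throughout: 1549 of 1581 aligned bases are identical (97.98%), with 32 mismatches and no gap, and 7 of 9 exons have the same length in both. Of the stretches of 150 bases in Gm11735, the read length given by the labels, 377 of 1432 (26.3%) occur unchanged in St6galnac1, and the longest shared run is 402 bases. Counts may thus have been assigned to the wrong copy, and the count of Gm11735 is uncertain. St6galnac2, by contrast, aligned to St6galnac1 over part of its length at 61.3% identity and shared no stretch of 150 bases with it.

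The proportions of the 3 adjacent genes in the pair of libraries that held them are a description, with no test of their difference. BC018473 had 11.97 counts for each count of St6galnac1 in WT replicate 1 (exact 95% interval 10.48 to 13.7) and 12.01 in WT replicate 2 (10.3 to 14.02). Gm11735 had 0.242 counts per count of St6galnac1 in WT replicate 1 (0.178 to 0.324) and 0.258 in WT replicate 2 (0.184 to 0.356), a ratio that St6galnac1 reads assigned to the pseudogene would also enter. BC018473 was at 123 CPM (118 to 127) in WT replicate 1 and 106 CPM (102 to 110) in WT replicate 2. Per kb of exon, BC018473 was at 22.4 and 19.3 CPM in WT replicates 1 and 2, St6galnac1 at 4.29 and 3.68, and Gm11735 at 1.57 and 1.44.

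By label, WT replicate 1, with the genes on, was the female of 54 weeks, and WT replicate 2, also on, was a male of 32 weeks, the same sex and age as WT replicate 3, where they were off. The part of sex and age in the split was not tested. Markers of T and NK cells, which lineage depletion should remove, summed over all 10 members to 5.54, 4.201 and 7.44 CPM in P95H/+ replicates 1, 2 and 3 and to 17.8, 8.01 and 7.30 CPM in WT replicates 1, 2 and 3. The sum was highest in WT replicate 1 and nearly equal in WT replicates 2 and 3. Of these 10 markers 6 entered the 6-library fit and 0 passed. All 6 had a log2 fold change below 0, with a median of -0.86, against 0.02 over all fitted genes. Without replicate 3 of both genotypes the median was -1.11 over the 5 fitted, against -0.0029 over all fitted genes. Of these 5, Ncr1 passed the filter on low counts there through the wild-type libraries alone, which fixed its direction. With no filter the median over all 10 was -0.72, against 0.01 over all genes. Trbc1, a T cell receptor chain chosen after its values were seen, was at 0.646, 0.708 and 0.372 CPM in P95H/+, against 2.65, 1.80 and 1.07 CPM in WT replicates 1, 2 and 3. Cd3d also had genotypes that did not overlap, as had 7.84% of all fitted genes. It was at 0.646, 0.531 and 0.651 CPM in P95H/+, against 1.22, 0.711 and 0.831 CPM in WT. The genotypes overlapped for every other marker of this list, such as Trac at 0.138, 0.133 and 0.744 CPM in P95H/+, against 0.826, 0.379 and 0.653 CPM in WT. The part of such cells in the split was not tested. All 9 of these markers other than Cd3g had a count in every library, and Cd3g was at 0 in P95H/+ replicate 1. The summed B cell markers ran from 207 to 315 CPM in P95H/+ and from 261 to 318 CPM in WT, and the 8 stroma, endothelium and epithelium markers from 123 to 156 and from 104 to 153 CPM. In bulk cells, fewer cells of a type and less RNA per cell cannot be told apart.

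**Figure D1:**
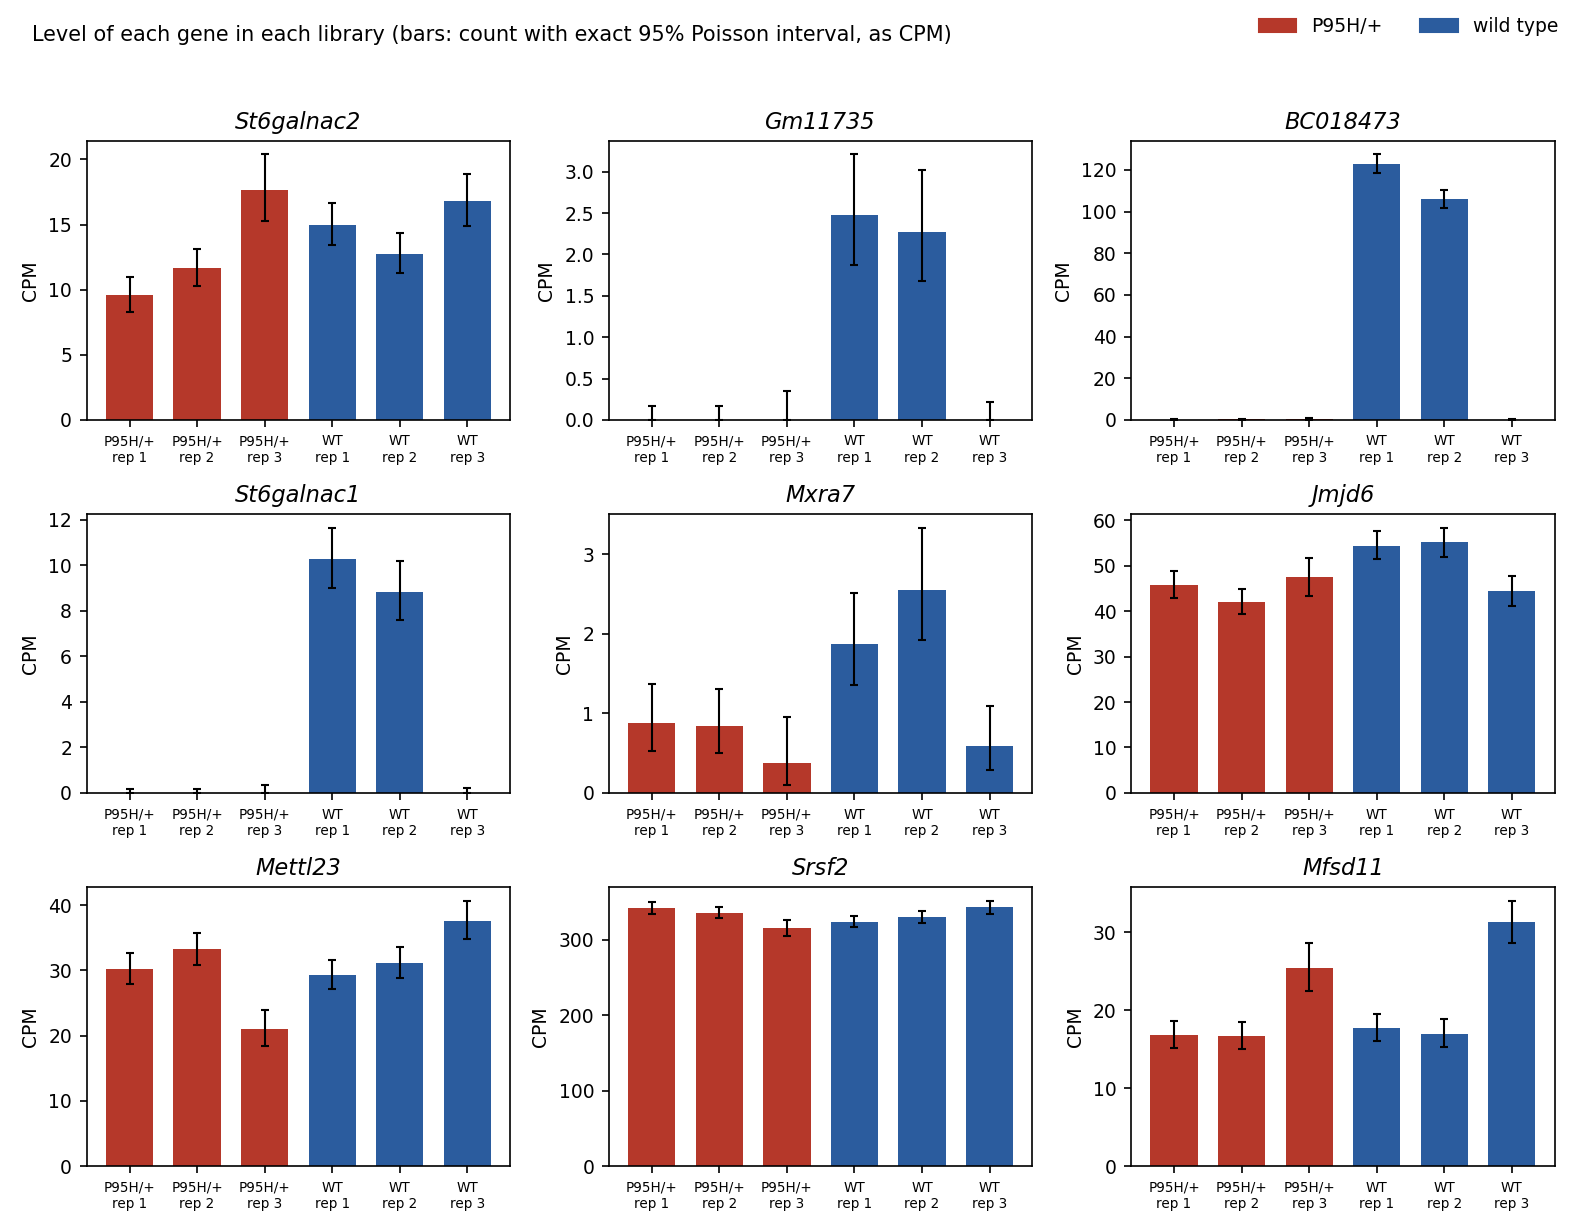
Level of the 8 neighbours and Srsf2 in each library, in CPM on linear axes that start at 0, with exact 95% Poisson intervals, P95H/+ in red and wild type in blue, in chromosomal order. Gm11735, BC018473 and St6galnac1 have visible bars in WT replicates 1 and 2 only, while the other genes have bars in all 6 libraries.

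Mxra7, named for an association with matrix remodelling, was the next gene towards Srsf2 and was low everywhere. It had 0.877, 0.840 and 0.372 CPM in P95H/+ replicates 1, 2 and 3, against 1.87, 2.56 and 0.594 CPM in WT replicates 1, 2 and 3. Its 2 highest libraries were again WT replicates 1 and 2, and WT replicate 3 lay inside the range of P95H/+. These values rest on 4 to 54 counts per library. The log2 fold change of P95H/+ over WT was -1.15 (SE 0.56) with all 6 libraries and -1.33 (SE 0.31) without replicate 3 of both genotypes. It stayed below 0 in the 15 other settings, between -1.54 and -0.71.

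Jmjd6, a JmjC-domain oxygenase that hydroxylates lysines of splicing proteins, stayed on in all libraries. It had 45.8, 42.1 and 47.5 CPM in P95H/+ replicates 1, 2 and 3, against 54.4, 55.1 and 44.4 CPM in WT replicates 1, 2 and 3. WT replicates 1 and 2 were the highest here too, by a far smaller margin, with WT replicate 3 among the P95H/+ values. The log2 fold change was -0.11 (SE 0.20), or -0.29 (SE 0.10) without replicate 3 of both genotypes. Set against Srsf2 in the same library, Jmjd6 had 0.134, 0.125 and 0.151 counts per Srsf2 count in P95H/+ replicates 1, 2 and 3 and 0.168, 0.167 and 0.129 in WT replicates 1, 2 and 3.

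The other neighbours did not share the split. St6galnac2, on the far side of the 3 adjacent genes, had 9.55, 11.6 and 17.7 CPM in P95H/+, against 14.9, 12.7 and 16.8 CPM in WT replicates 1, 2 and 3. Its highest libraries were the replicate 3 libraries of both genotypes. Its log2 fold change was -0.12 (SE 0.29), or -0.36 (SE 0.16) without replicate 3 of both genotypes. It moved to -0.43 without P95H/+ replicate 3 and to 0.04 without P95H/+ replicate 1.

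Mettl23, a methyltransferase-like gene that starts beside Jmjd6, had 30.2, 33.2 and 21.03 CPM in P95H/+, against 29.3, 31.1 and 37.6 CPM in WT replicates 1, 2 and 3. Its lowest and highest libraries were the replicate 3 libraries of P95H/+ and WT, and its log2 fold change of -0.14 (SE 0.23) turned to 0.10 (SE 0.10) without them. Mfsd11, a membrane protein of the major facilitator superfamily, had 16.8, 16.7 and 25.4 CPM in P95H/+, against 17.7, 17.0 and 31.3 CPM in WT. The replicate 3 library was the highest of both genotypes. Its log2 fold change was -0.08 (SE 0.32), or -0.023 (SE 0.12) without replicate 3 of both genotypes, and turned to 0.24 without WT replicate 3.

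Srsf2 was the steadiest of these genes, with 342, 336 and 315 CPM in P95H/+ replicates 1, 2 and 3, against 324, 331 and 343 CPM in WT replicates 1, 2 and 3. Its highest library was 1.09 times its lowest, compared with 1.31 times for Jmjd6, 1.79 for Mettl23, 1.85 for St6galnac2, 1.88 for Mfsd11 and 6.88 for Mxra7. Counts per gene do not show which Srsf2 allele was transcribed. Srsf2 had a log2 fold change of 0.07 (SE 0.17), or 0.08 (SE 0.08) without replicate 3 of both genotypes, and -0.0061 with total counts alone. By mean CPM per kb of exon, Srsf2 came first at 112 in both genotypes. Among the genes on in all libraries, Mettl23 followed at 10.4 in P95H/+ and 12.1 in WT, and Jmjd6 at 9.60 and 10.9. Mfsd11 was at 2.77 and 3.11, St6galnac2 at 2.24 and 2.56, and Mxra7 at 0.291 and 0.700. The 3 adjacent genes would stand elsewhere in each genotype: BC018473 averaged 0.0306 in P95H/+ and 13.9 in WT, above Mettl23, St6galnac1 0 and 2.66, and Gm11735 0 and 1.00. In each of these pairs of neighbours in the order, Mettl23 with Jmjd6 and Mfsd11 with St6galnac2, the ranges over libraries overlapped.

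**Figure D2:**
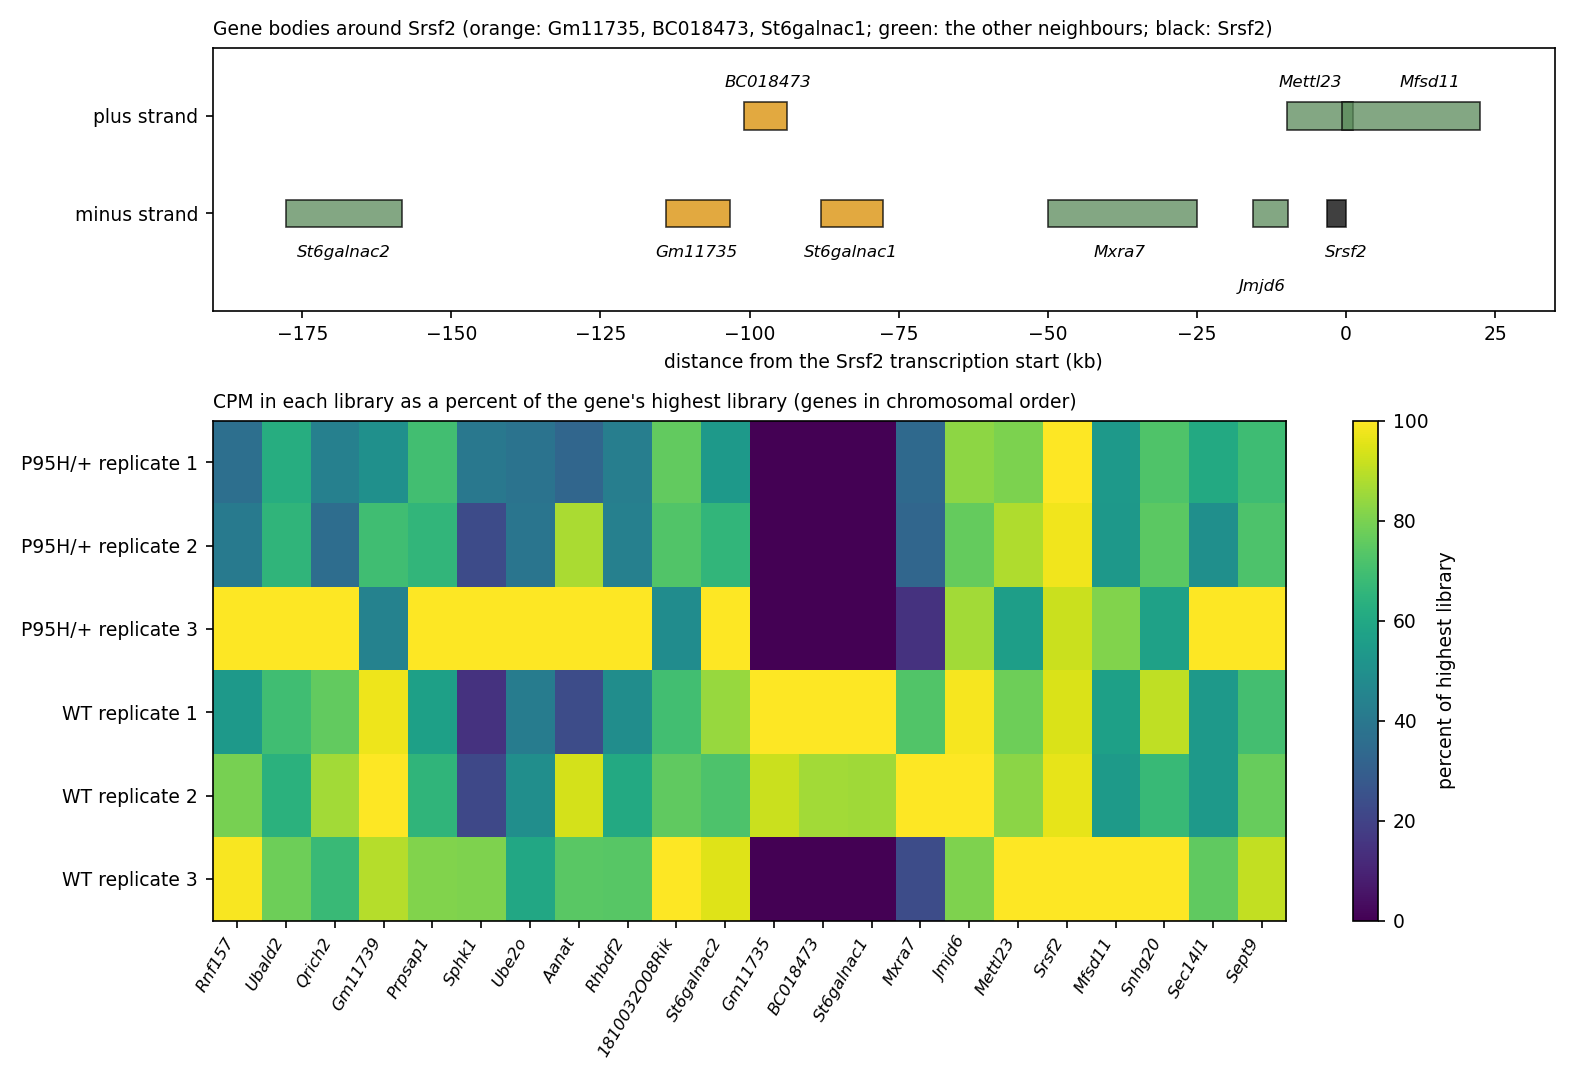
Upper panel, gene bodies by strand as distance in kb from the Srsf2 start. Lower panel, CPM of each library as a percent of the gene's highest library, for the 8 neighbours, Srsf2 and the 13 other fitted genes within 500 kb in chromosomal order. Gm11735, BC018473 and St6galnac1 are dark in 4 libraries and bright in WT replicates 1 and 2, while every other gene shown holds signal in all 6.

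The genotype comparison asks which transcripts differ in cells with 1 mutant Srsf2 allele. With edgeR's quasi-likelihood F test and Benjamini-Hochberg adjustment, 0 of 17144 genes (0.0%) passed an adjusted p of 0.05 with all 6 libraries, and 361 had an unadjusted p under 0.05. DESeq2 called 8 genes, limma voom 0, and edgeR with a block for the replicate number 1. Of the 8 neighbours, 5 passed the filter on low counts and entered this fit, and 0 of these 5 were among the calls of any of the 4 methods. BC018473, St6galnac1 and Gm11735 were left out by the filter, which asks for enough counts in 3 libraries. With no filter (0 of 26027 genes called, 0.0%, and 657 at an unadjusted p under 0.05) or with at least 1 CPM in 2 libraries (0 of 15466, 0.0%, and 296), all 8 entered a 6-library fit and 0 of the 8 were called. The genotypes overlapped for all 8 neighbours, where 1344 of the 17144 genes (7.84%) had genotypes that did not overlap.

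Without replicate 3 of both genotypes, 144 of 17371 genes (0.829%) passed, 32 higher and 112 lower in P95H/+. Of the 8 neighbours 3 were among the lower genes, BC018473, St6galnac1 and Gm11735. In the P95H/+ libraries kept, these 3 genes had at most 4 counts, so they passed the filter through the wild-type libraries alone. Entry to the fit thus fixed their direction in advance, and their calls carry no test of genotype. With WT replicate 3 alone left out, all 8 neighbours entered the fit. The 1 call among 17649 genes (0.00567%) was BC018473, lower in P95H/+, and St6galnac1 and Gm11735 were not called. There too BC018473 passed the filter through the wild-type libraries alone. With P95H/+ replicate 3 alone left out, all 8 entered and 0 were called. The calls of these genes come from the contrast by which they were chosen, and they depend on which replicate 3 libraries are left out.

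**Figure D3:**
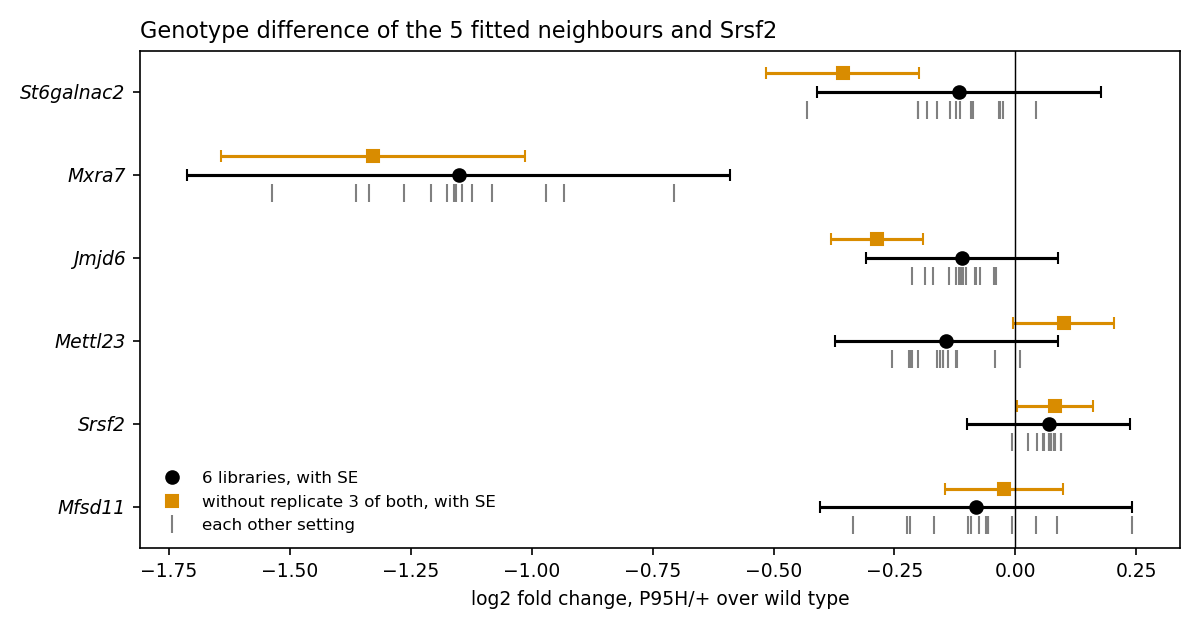
Log2 fold change of P95H/+ over wild type for the 5 neighbours that entered the 6-library fit and Srsf2, as circles with 6 libraries and squares without replicate 3 of both genotypes, each with its SE, and ticks for every other setting. Mxra7 lies below 0 throughout, from -1.54 to -0.71, and the others lie between -0.43 and 0.24.

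The remaining genes of the stretch bear on how far the split extends. Within 500 kb of Srsf2 there were 21 other genes in the counts, of which 13 entered the fit. Of these 13, 0 passed the test with 6 libraries and 0 without replicate 3 of both genotypes. Their median log2 fold change was 0.10, against 0.02 over all fitted genes, and -0.03 against 0.00 without replicate 3. For 1 of the 13 the genotypes did not overlap, a share near the 7.84% of all fitted genes. That gene, the antisense gene Gm11739, had 0.738, 1.02 and 0.651 CPM in P95H/+, against 1.43, 1.47 and 1.31 CPM in WT (log2 fold change -0.71, SE 0.29, adjusted p of 1.00 by edgeR).

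None of these 13 showed the near absence in 4 libraries seen in the 3 adjacent genes, and the other 8 of the 21 stayed under 1 CPM in every library. The next 3 genes were chosen after their values were seen. 1810032O08Rik, a noncoding gene that overlaps the end of St6galnac2 on the other strand, was at 28.6, 27.3 and 18.3 CPM in P95H/+, against 26.2, 28.4 and 37.6 CPM in WT. On the other side of Srsf2, Snhg20, a host gene of a small RNA, was at 9.09, 9.37 and 7.16 CPM in P95H/+, against 11.3, 8.43 and 12.5 CPM in WT. Sphk1, the sphingosine kinase, varied most among them, at 37.2, 21.1 and 93.2 CPM in P95H/+, against 13.8, 20.3 and 75.05 CPM in WT, and was highest in the replicate 3 libraries.

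Relatives of the members elsewhere in the genome were compared as lists. Of 24 sialyltransferases and sialic acid pathway genes, 21 entered the 6-library fit and 0 passed in either direction, with a median log2 fold change of 0.01 against 0.02 for all genes (0.0045 against 0.00 without replicate 3 of both genotypes). Those with the smallest p were St8sia1 and St8sia6, which add sialic acid to sialic acid on glycolipids and glycans. St8sia1 was at 0.277, 0.310 and 1.12 CPM in P95H/+, against 1.304, 2.42 and 1.48 CPM in WT (log2 fold change -1.70, SE 0.58, adjusted p of 1.00 by edgeR). Without replicate 3 of both genotypes it was the 1 sialyltransferase of 20 that passed, lower in P95H/+, where 144 of all 17371 genes (0.829%) passed. In that fit St8sia1 passed the filter on low counts through the wild-type libraries alone. Entry thus fixed its direction in advance, and its call carries no test of genotype. Its level was low in every library, and P95H/+ replicate 3, left out there, was near WT replicate 1. St8sia6 was at 9.32, 15.2 and 6.89 CPM in P95H/+, against 16.4, 20.9 and 13.1 CPM in WT, and did not pass in either fit (log2 fold change -0.62, or -0.58 without replicate 3).

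Of 25 JmjC enzymes, 22 entered the fit and 0 passed, with a median log2 fold change of 0.06. Kdm5c, an X-linked histone demethylase, had 282 ± 19.5 CPM in P95H/+ and 234 ± 39.0 CPM in WT (SD, n = 3 each). Jmjd8 had 18.3 ± 5.62 CPM in P95H/+ and 15.03 ± 4.78 CPM in WT. Of 21 methyltransferase-like genes, 20 entered the fit and 0 passed, with a median of 0.01. Mettl1, which methylates tRNA, had 42.4 ± 1.895 CPM in P95H/+ and 33.4 ± 2.85 CPM in WT, and Mettl22 had 16.5 ± 7.03 CPM in P95H/+ and 12.4 ± 3.32 CPM in WT. Without replicate 3 of both genotypes the list medians were -0.048 for the JmjC enzymes and 0.075 for the methyltransferase-like genes. With all 6 libraries and without replicate 3, the log2 fold changes were 0.35 and 0.35 for Kdm5c, 0.37 and 0.33 for Jmjd8, 0.42 and 0.32 for Mettl1, and 0.50 and 0.26 for Mettl22.

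Genes elsewhere whose pattern was most like that of BC018473 were ranked by Pearson's r of log2(CPM + 0.5) over the 6 libraries. The ranking took the 688 genes that entered the fit and spanned at least 2 log2 units between libraries. With the libraries in separate groups of 2 and 4, r mainly reflects that split and is given as a measure of likeness. St6galnac1 and Gm11735, outside this ranking because they did not enter the fit, had r of 1.00 with BC018473. The other members and Srsf2 were outside it because they spanned less. Jmjd6 had r of 0.94 over a span of only 0.38 log2 units, and Mxra7 0.91 over 1.81, against 7.82 for BC018473. St6galnac2 had 0.08, Mettl23 0.00, Srsf2 -0.36 and Mfsd11 -0.42.

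Among the genes ranked, the 5 most alike were Gimap4 (r 0.98), Hspb1 (0.96), Hspa1b (0.95), Hspa1a (0.93) and Gm15726 (0.93), on chromosomes 6, 5, 17, 17 and X. Gimap4, a GTPase of lymphocytes, had 0.969, 0.840 and 1.303 CPM in P95H/+, against 4.87, 3.55 and 1.19 CPM in WT replicates 1, 2 and 3. Hspa1b, an inducible heat shock chaperone, had 87.4, 148 and 186 CPM in P95H/+, against 556, 481 and 99.6 CPM in WT. Its close paralog Hspa1a followed it, at 36.4, 63.5 and 92.9 CPM against 236, 211 and 45.2 CPM, and reads may be shared between them. Hspb1, a small heat shock protein, had 0.369, 0.265 and 0.744 CPM in P95H/+, against 2.61, 3.41 and 0.119 CPM in WT. None of these 5 passed the 6-library test. Gimap4 and Hspb1 passed without replicate 3 of both genotypes, at log2 fold changes of -2.18 and -3.20, in the contrast that their likeness to BC018473 already reflects. In P95H/+ replicates 1 and 2 these rest on few counts, 21 and 19 of Gimap4 and 8 and 6 of Hspb1. Hspb1 passed the filter of that fit through the wild-type libraries alone. Entry thus fixed its direction in advance, and its call carries no test of genotype. All 5 had counts in every library, unlike St6galnac1 and Gm11735.

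**Figure D4:**
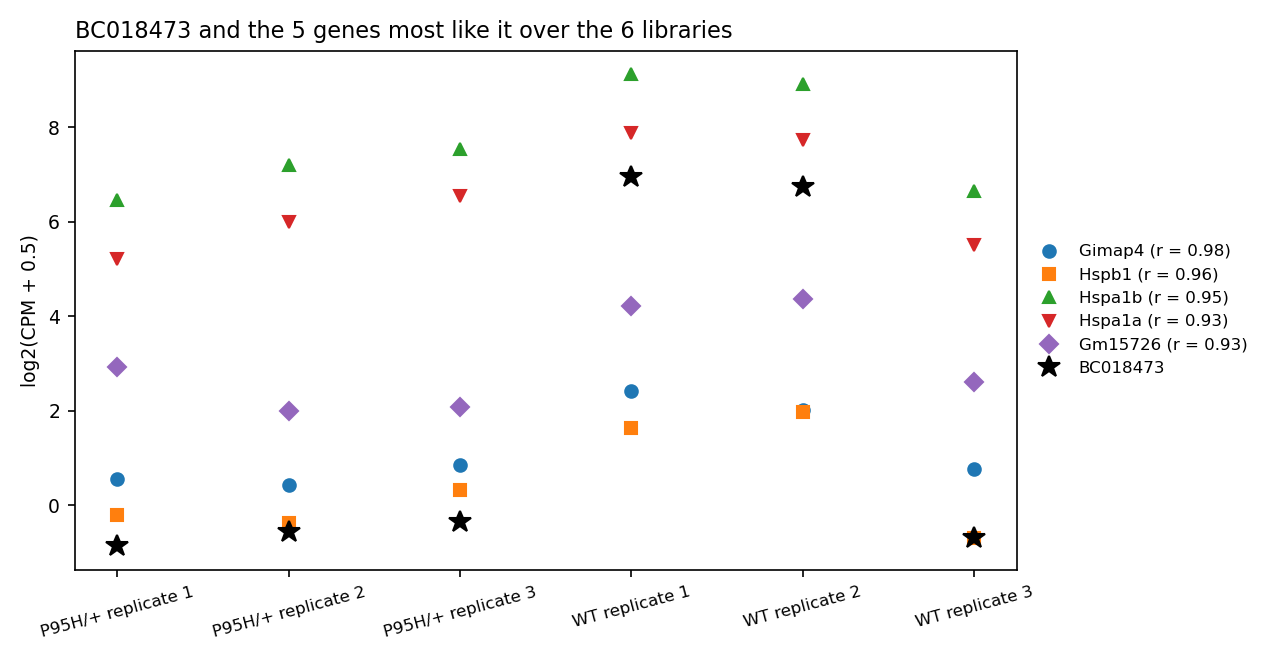
Log2(CPM + 0.5) of BC018473 (stars) and the 5 ranked genes most like it in each library. All 6 genes are highest in WT replicates 1 and 2, with BC018473 spanning 7.82 log2 units and the others 2 to 3.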

How the data were processed

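The members and gene lists were chosen with earlier results of these data known. Total RNA depleted of ribosomal RNA was made into stranded libraries and read as paired ends, per the labels. The submitters' processing notes name featureCounts of Subread 1.5.1, STAR 2.5.3a, Picard 1.96, Trim Galore, cutadapt, edgeR, limma and mm10, without roles or settings. The authors deposited raw counts of 26027 genes and CPM tables, and the authors' CPM equalled counts over the library total (or the total of the 15466 filtered genes) within 5e-04. All results start from the deposited counts.

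The genotype test used edgeR 4.0.16 (R 4.3.3) with TMM scaling, filterByExpr, robust quasi-likelihood fits, a two-sided F test and Benjamini-Hochberg adjustment at 0.05. The fitting was tested on simulated data. DESeq2 1.42.0 and limma 3.58.1 (voom), other scalings and filters, a sex term, the replicate block and fits without single libraries or replicate 3 were alternatives. The SE follows from the F statistic. GENCODE M21 (mm10) gave positions, exon lengths and GC content for 25878 identifiers, and 44 blank or date-like symbols were replaced from it. Deviations of same-numbered libraries correlated at 0.372, 0.348 and 0.613, above the 0.1 asked of each pair, so the block is given where it changes a call. No label explains the pairing, and crossed pairs of replicates 1 and 2 gave 0.386 and 0.463. Intervals and floors cover counting error only. Named were the members, Srsf2, genes within 500 kb past the test, the 5 genes most like BC018473 and the 2 smallest p of each family list, and others as stated.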

Additional observations from a re-analysis of the deposited data

How the results depend on the processing

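With all 6 libraries 0 genes passed, against 8 with DESeq2, 1 with the replicate block (Ighg1), 144 without replicate 3 of both genotypes and 0 to 1 with single libraries left out. The block changed no call of a gene described here. The other scalings, filters, voom and the sex term called 0. Without replicate 3 of both genotypes, 1 of 20 sialyltransferases and 1 of 6 erythroid markers passed, each lower in P95H/+, where 144 of 17371 genes (0.829%) passed. The sialyltransferase was St8sia1, whose direction was fixed by its entry through the wild-type libraries alone. The counts of these 2 lists were 0 in every other setting. Those of the genes within 500 kb were 0 in every setting, also with windows of 250 kb and 1 Mb. Medians near 0 moved: the JmjC median (0.06 with 6 libraries) was -0.027 with total counts alone, 0.11 with the sex term, -0.048 without replicate 3 of both genotypes and -0.053 to 0.11 with single libraries left out. The methyltransferase-like median (0.01) was -0.061, -0.12, 0.075 and -0.12 to 0.10 in the same settings. Without replicate 3 of both genotypes the erythroid marker median (0.46) was -0.55 and the megakaryocyte marker median (0.44) 0.043, and single libraries left out gave -0.39 to 0.80 and -0.10 to 0.72. Fold changes of 5 neighbours and Srsf2 moved by more than 1 SE in 3 cases: St6galnac2 at -0.43 without P95H/+ replicate 3, Mettl23 at 0.10 without replicate 3 of both genotypes and Mfsd11 at 0.24 without WT replicate 3. The cause was not tested. BC018473, St6galnac1 and Gm11735 entered 6-library fits with no filter or with 1 CPM in 2 libraries only, and were not called there. Mxra7 and Gm11735 rest on few counts.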

Other observations

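Another gene, Gm25911, split the libraries in the opposite way and was picked after its values were seen. Gm25911, a 56-base gene annotated as a miRNA on chromosome 1 (167340369 to 167340424, minus strand), had 293, 322 and 347 counts in P95H/+ replicates 1, 2 and 3, against 4, 9 and 357 counts in WT replicates 1, 2 and 3. In CPM this is 13.5, 14.2 and 32.3 in P95H/+, against 0.174, 0.426 and 21.2 in WT. It was thus low in the pair of libraries where BC018473 was high, and no other gene of the counts overlaps it in the annotation. Its r with BC018473, -0.98, was the lowest among the genes ranked.

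Gm15726, 1 of the 5 ranked genes most like BC018473, lies within Mid1 on the X chromosome, on the opposite strand, as does G530011O06Rik. Both were set beside Mid1 after their values were seen. Mid1, a gene that crosses the boundary of the pseudoautosomal region in C57BL/6 mice, had 21.9, 13.1 and 27.2 CPM in P95H/+, against 59.4, 64.9 and 21.6 CPM in WT replicates 1, 2 and 3. G530011O06Rik had 8.26, 5.70 and 5.58 CPM in P95H/+, against 22.5, 24.4 and 2.97 CPM in WT. Gm15726 had 7.06, 3.49 and 3.72 CPM in P95H/+, against 17.9, 19.996 and 5.58 CPM in WT. Whether reads of these overlapping genes were shared was not tested.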
